A study of Homo sapiens with 5 samples.

Results

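The genes described here are 8 genes of zinc and metal handling in SW480 cells: the metallothioneins MT2A, MT1E, MT1X, MT1G and MT1F, the metal-sensing transcription factor MTF1, the zinc exporter SLC30A1 and the zinc importer SLC39A10. They were chosen by symbol, and all 8 were listed in every library, among 15028 genes that were listed in all 5 libraries and seen in at least 10 wells. SW480 is an established human colorectal cancer line. Its GFP-labelled cells were grown as tumors in zebrafish xenografts, dissected and digested as pools of tumors, sorted live by FACS into 384-well plates at 1 or 4 days post injection (dpi), and sequenced by SORT-seq, which tags each RNA molecule with a well barcode and a unique molecular identifier (UMI). Each plate is 1 library, with libraries 6, 7 and 8 at 1 dpi and libraries 10 and 11 at 4 dpi, and all 5 carry the same line with no drug treatment named. A total of 826 cells passed the filter (over 2000 genes and under 25% of UMIs on mitochondrial genes), 533 at 1 dpi and 293 at 4 dpi. The sources used here do not say if each plate had its own pool of tumors, and p-values may then measure technical spread alone.

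Metallothioneins are small cysteine-rich proteins that bind zinc and copper and take up excess of these and of toxic metals. When free zinc rises, MTF1 binds metal response elements in the promoters of metallothionein genes and of SLC30A1, whose product moves zinc out of the cell, while SLC39A10 moves zinc into it. MT2A is usually the most abundant human metallothionein, and metallothionein genes are also induced by glucocorticoids and by other stresses.

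The 5 metallothioneins lie in 1 cluster on chromosome 16 (RefSeq, GRCh38.p14, the hg38 build that the submitters' processing notes name), with MT2A at chr16:56608584-56609497, MT1E at chr16:56625781-56627112, MT1F at chr16:56657959-56659303, MT1G at chr16:56666730-56668065 and MT1X at chr16:56682470-56684196. MT1G is on the minus strand and the other 4 on the plus strand. MTF1 (chr1:37809574-37859592) and SLC30A1 (chr1:211571568-211579161) are on the minus strand, and SLC39A10 (chr2:195613029-195737700) is on the plus strand. RefSeq promoters were matched for 5 of the 8 genes, and none was matched for MT1E, MT1F and MT1G. The 250 bases before the start of MT2A, MT1X and SLC30A1 are shown because these genes varied together across cells and the first pair moved together with time. Capitals mark the core of the metal response element, TGCACNC or TGCGCNC, on either strand.
MT2A promoter (chr16:56608334-56608583, plus strand): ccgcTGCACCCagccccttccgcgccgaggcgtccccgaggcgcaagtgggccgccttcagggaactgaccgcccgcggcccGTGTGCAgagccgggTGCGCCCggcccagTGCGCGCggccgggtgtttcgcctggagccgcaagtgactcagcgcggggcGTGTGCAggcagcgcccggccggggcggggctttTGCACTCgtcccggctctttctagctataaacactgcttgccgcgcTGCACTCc
MT1X promoter (chr16:56682220-56682469, plus strand): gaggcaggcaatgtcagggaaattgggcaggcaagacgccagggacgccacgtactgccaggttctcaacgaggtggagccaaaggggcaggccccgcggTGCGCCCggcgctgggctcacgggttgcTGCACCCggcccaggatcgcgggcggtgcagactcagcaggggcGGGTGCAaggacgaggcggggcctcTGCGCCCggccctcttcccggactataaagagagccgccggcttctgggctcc
SLC30A1 promoter (chr1:211579162-211579411, minus strand): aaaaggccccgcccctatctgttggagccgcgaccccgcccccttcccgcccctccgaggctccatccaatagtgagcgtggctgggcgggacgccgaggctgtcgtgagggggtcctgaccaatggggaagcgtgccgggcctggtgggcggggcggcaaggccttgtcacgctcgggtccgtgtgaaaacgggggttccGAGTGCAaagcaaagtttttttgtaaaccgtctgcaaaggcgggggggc

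MT2A held 7 matches to this core, MT1X 4 and SLC30A1 1. No match was found in the same window of MTF1 or in the 2 listed windows of SLC39A10. Of all 35116 RefSeq promoters, 24.8% held at least 1 match and 1.58% held 3 or more. A match of letters is a description and not a bound site.

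The passing cells of a library held between 3789632 and 7503665 UMIs in all, with 25938 to 36197 UMIs in the median cell at 1 dpi and 18823 to 26120 at 4 dpi. All 10 colorectal epithelial markers had UMIs, with a summed level of 4690 to 5751 CPM (UMIs of a gene relative to all UMIs of the library, times 1e6) at 1 dpi and 4705 to 4902 at 4 dpi. This sum was mostly KRT8, EPCAM, KRT18 and KRT19. CDX1 was at 0.19 CPM in library 7 and at 0 in the others. CEACAM5 lay at 1.05 to 2.23 CPM and LGALS4 at 1.77 to 3.97 CPM. Markers of blood cells summed to 13.1 to 18.2 CPM at 1 dpi and 7.39 to 10.6 at 4 dpi, those of fibroblasts to 23.3 to 27.4 and 33.0 to 44.7, and those of endothelium to 1.49 to 2.00 and 1.77 to 2.11, with MPO, CD3E, COL1A2 and CDH5 at 0 in passing cells. Of the markers that could be tested, 1 of 8 epithelial ones was higher at 4 dpi and 3 lower. For blood cells 1 of 2 (HBA1) was lower, and for fibroblasts 1 of 2 (COL1A1) was higher. Among all tested genes, 13.4% were higher and 14.2% lower. The source of the UMIs of blood, fibroblast and endothelial markers in this human line, and their part in the results below, were not tested. The plates share the same 384 well barcodes, and no 2 cells held identical counts. Each UMI stands for 1 molecule counted near its 3′ end, so a level does not scale with transcript length.

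Between 1 and 4 dpi, MT1G, MT1E and MTF1 fell in the summed RNA of all cells, while the levels of MT2A and MT1X differed by less than the spread between libraries. The summed UMIs of each library were compared by edgeR (quasi-likelihood fit, two-sided), and p-values were adjusted over 12610 genes by Benjamini-Hochberg with a threshold of 0.05. Of the 8 genes, 3 were lower at 4 dpi and 0 were higher, beside 14.2% of all tested genes called lower, 13.4% called higher and 27.6% called in either direction. The same 3 genes had both 4 dpi libraries below all 1 dpi libraries, as did 27.7% of all tested genes.

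MT2A was the most abundant member, at 975, 819 and 1087 CPM (scaled by TMM, edgeR's library scaling) in the 1 dpi libraries 6, 7 and 8 and at 1107 and 705 CPM in the 4 dpi libraries 10 and 11. The time points overlapped, since library 10 was the highest and library 11 the lowest of the 5. Its log2 change was -0.08 (SE 0.15, adjusted p = 0.71). MT1X showed the same order among libraries, with 127, 120 and 156 CPM at 1 dpi and 166 and 87.5 CPM at 4 dpi, a log2 change of -0.08 (SE 0.18, adjusted p = 0.78). Both values rested on library 10. Without it MT2A was lower at 4 dpi by a log2 change of -0.45 (adjusted p = 0.017) and MT1X by -0.61 (adjusted p = 0.0065), and without library 11 the log2 changes were 0.20 and 0.30 and did not pass the test.

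MT1E, a metallothionein of the same cluster, was at 175, 154 and 209 CPM at 1 dpi and at 88.1 and 94.5 CPM at 4 dpi. Both 4 dpi libraries lay below all of 1 dpi, with a log2 change of -0.97 (SE 0.13, adjusted p = 5.97e-05). MT1G showed the largest fall of the 8 genes, from 32.2, 18.6 and 18.2 CPM to 2.51 and 3.12 CPM, a log2 change of -3.05 (SE 0.35, adjusted p = 1.94e-05). Its values at 4 dpi rest on 10 and 12 UMIs, against 241, 98 and 87 UMIs at 1 dpi. MT1F was near the detection limit with 36, 23 and 5 UMIs at 1 dpi and 7 and 3 UMIs at 4 dpi. Its log2 change of -1.46 (SE 0.63, adjusted p = 0.096) did not pass the test, and passed it without library 8 (-1.83, adjusted p = 0.016). In the 1 dpi libraries that remain then, 1 cell held 23 of the 36 MT1F UMIs of library 6 and 1 cell 14 of the 23 of library 7. The metallothioneins are paralogs of similar sequence, and the handling of reads with several matches is not stated. Over the last 400 bases of the longest GENCODE v44 transcript, 60-base windows that matched a transcript of another metallothionein gene exactly made up 0% in MT1E and MT1F, 3.52% in MT1G and MT1X and 5.87% in MT2A, and with up to 2 mismatches 21.4%, 0%, 14.1%, 13.5% and 12.6% in MT1E, MT1F, MT1G, MT1X and MT2A. Values of single metallothioneins are uncertain for this reason. These shares do not bound the error, which also depends on how abundant the other metallothioneins are and was not measured.

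MTF1, the factor that senses zinc, was at 61.7, 53.8 and 56.4 CPM at 1 dpi and at 33.6 and 30.4 CPM at 4 dpi. The time points did not overlap, and the log2 change was -0.84 (SE 0.13, adjusted p = 2.91e-04). SLC30A1, the exporter, was at 64.7, 69.5 and 62.4 CPM at 1 dpi and at 41.7 and 62.6 CPM at 4 dpi. Library 10 was low and library 11 was within the range of 1 dpi. The log2 change of -0.33 (SE 0.15, adjusted p = 0.11) did not pass the test, and without library 11 it was -0.66 (adjusted p = 0.0065). SLC39A10, the importer, was the steadiest member, at 41.8, 43.6 and 44.4 CPM at 1 dpi and at 46.7 and 45.2 CPM at 4 dpi (log2 change 0.09, SE 0.12, adjusted p = 0.62).

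**Figure D1:**
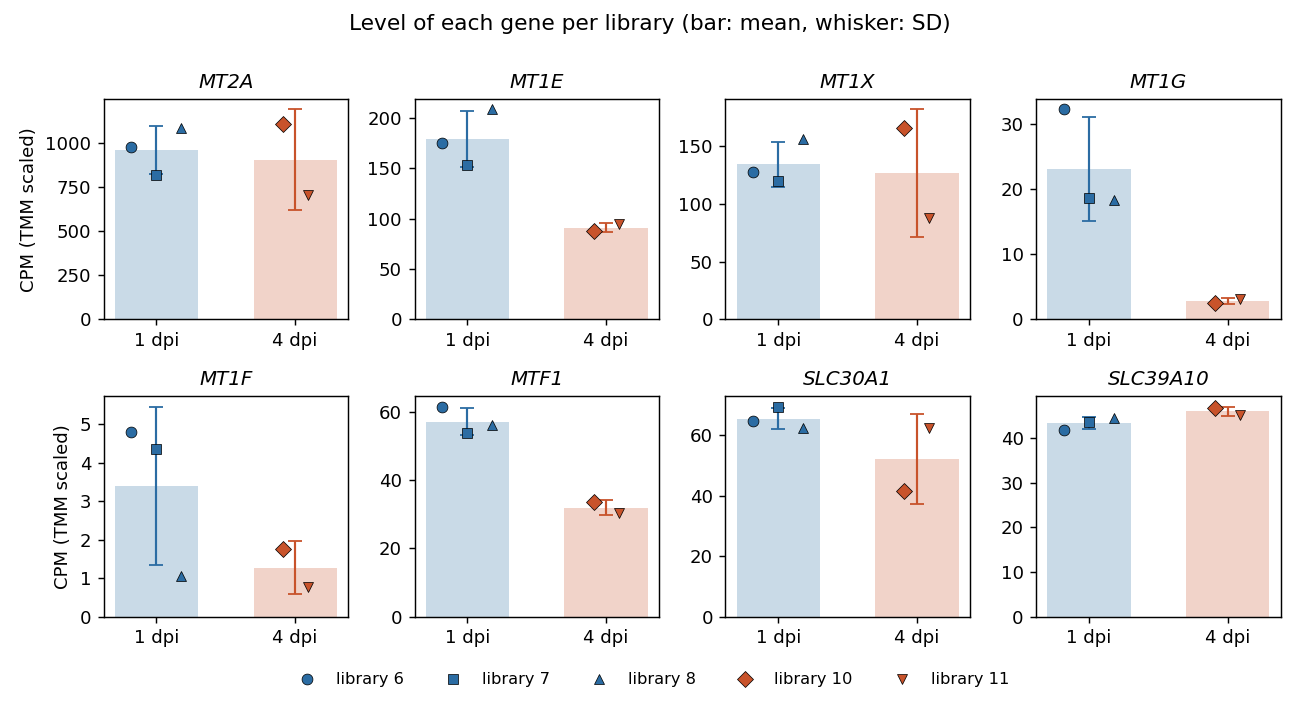
Level of each of the 8 genes in CPM (TMM scaled, linear axes from 0), with 1 point per library, bars at the mean and whiskers of 1 SD (n = 3 libraries at 1 dpi, n = 2 at 4 dpi). MT1E, MT1G and MTF1 do not overlap between time points, with both 4 dpi libraries lower, whereas MT2A and MT1X span their whole range within 4 dpi.

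Per the deposited files, libraries 6, 7 and 10 were sequenced on 1 flow cell and libraries 8 and 11 on another. MT1E, MT1G and MTF1 were lower at 4 dpi on both, while MT2A and MT1X were higher in library 10 than in libraries 6 and 7 and lower in library 11 than in library 8. In order of mean CPM at 1 dpi the genes were MT2A (960 ± 134, SD, n = 3), MT1E (179 ± 27.7), MT1X (134 ± 19.3), SLC30A1 (65.6 ± 3.61), MTF1 (57.3 ± 4.01), SLC39A10 (43.3 ± 1.35), MT1G (23.0 ± 7.95) and MT1F (3.40 ± 2.05). The libraries of MT1E and MT1X overlapped, and those of the other neighbours in this order did not. At 4 dpi the order was MT2A (906 ± 284, SD, n = 2), MT1X (127 ± 55.3), MT1E (91.3 ± 4.53), SLC30A1 (52.1 ± 14.8), SLC39A10 (45.9 ± 1.07), MTF1 (32.0 ± 2.30), MT1G (2.81 ± 0.43) and MT1F (1.27 ± 0.69). Here MT1X overlapped with MT1E and SLC30A1 with SLC39A10. MT2A made up 73.4% to 74.2% of the UMIs of the 5 metallothioneins at 1 dpi and 81.1% and 79.1% in the 4 dpi libraries 10 and 11. MT1E took 13.3% to 14.2% at 1 dpi and 6.46% and 10.6% at 4 dpi. These shares did not overlap between time points, and the exact permutation test over libraries gave p = 0.1 for each (two-sided), the smallest p that 3 against 2 libraries can give.

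Metallothionein RNA differed widely between the single cells of a library. The summed level of the 5 genes in the median cell was 460, 428 and 496 CPM in the 1 dpi libraries 6, 7 and 8 and 279 and 297 CPM in the 4 dpi libraries 10 and 11. The median cell was thus lower in both 4 dpi libraries than in any of 1 dpi (exact permutation p = 0.1). The highest cell reached 28629, 18305 and 22722 CPM at 1 dpi and 27553 and 23454 CPM at 4 dpi, so the top of the range overlapped.

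A few cells carried most of the RNA, and more so at 4 dpi. The 10% of cells with the most metallothionein UMIs held 61.4%, 57.2% and 64.9% of them in the 1 dpi libraries 6, 7 and 8 and 81.5% and 72.2% in the 4 dpi libraries 10 and 11. In library 10, 2 of 132 cells held at least 50% of the UMIs, and in library 11 3 of 161 did, whereas at 1 dpi it took 14 of 228, 12 of 142 and 10 of 163 cells. The single highest cell held 37.3% of the metallothionein UMIs of library 10 (2026 UMIs) and 36.6% of those of library 11 (1254 UMIs), against 9.33%, 8.25% and 7.04% at 1 dpi. These highest cells of 4 dpi were deep, with 73532 UMIs in all (rank 2 of the library) and 53467 (rank 11), and wells with 2 cells were not looked for. In the cells outside this top 10%, the summed level was 582, 550 and 609 CPM at 1 dpi and 297 and 294 CPM at 4 dpi. After each cell was thinned to 5000 UMIs, the top 10% held 61.9%, 57.1% and 62.2% at 1 dpi and 71.1% and 65.2% at 4 dpi.

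**Figure D2:**
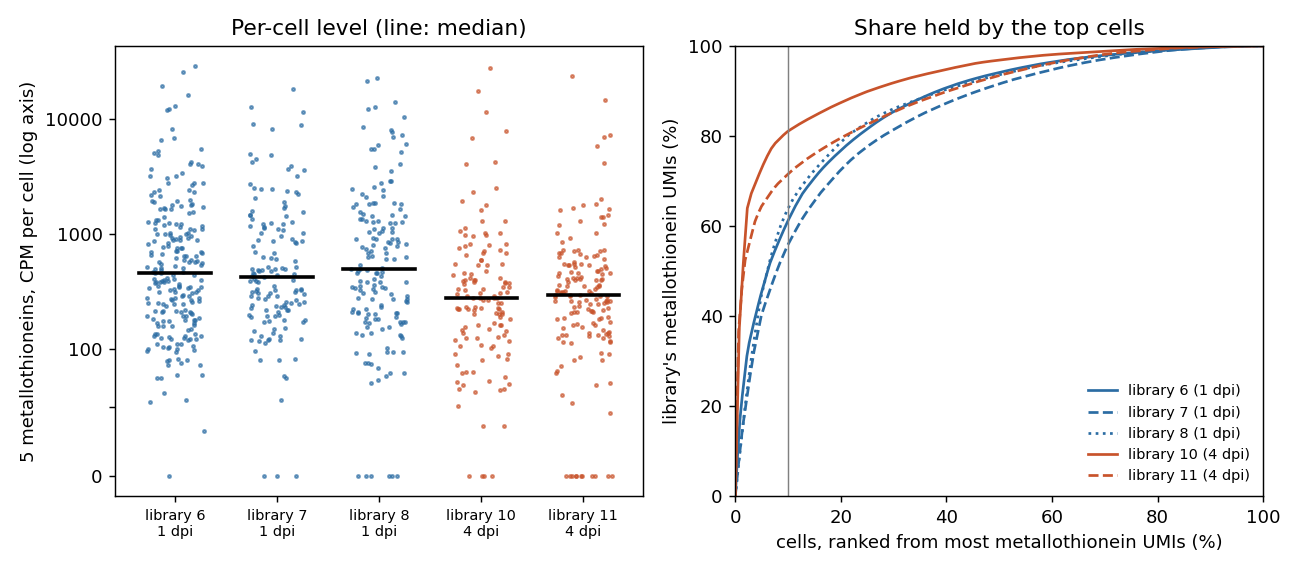
Left, the summed level of MT2A, MT1E, MT1X, MT1G and MT1F in each passing cell (CPM, log axis, cells without a UMI drawn at 0), with a line at the median of each library. Right, the share of a library's metallothionein UMIs held by its cells ranked from the highest, with a line at 10% of cells: the medians of libraries 10 and 11 (279 and 297 CPM) sit below those of 1 dpi, and their curves rise most steeply at the left.

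The levels summed per library gave deep and metallothionein-rich cells the most weight. When each cell was thinned to 5000 UMIs before summing, MT2A was lower at 4 dpi with a log2 change of -0.54 (edgeR, adjusted p = 0.0050) and MT1X with -0.84 (adjusted p = 0.0017), and MTF1 no longer passed the test (-0.48, adjusted p = 0.22). When every cell had equal weight (limma on log2 of the mean per-cell CPM plus 1), MT2A had -0.58 (adjusted p = 6.78e-04), MT1X -0.62 (adjusted p = 0.0010), MT1E -1.75 (adjusted p = 9.84e-11) and MT1F -1.10 (adjusted p = 0.037). Without the 1 cell of each library that had the most metallothionein UMIs, a setting chosen after the data had been seen, the log2 ratio of the mean level at 4 dpi over 1 dpi moved from -0.06 to -0.53 in MT2A, from -0.06 to -0.88 in MT1X and from -0.95 to -2.04 in MT1E.

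MT2A was detected in nearly every cell. It had a UMI in 97.1% ± 1.24 (SD, n = 3 libraries) of the cells of 1 dpi and in 93.7% ± 2.50 (n = 2) of those of 4 dpi, and in 74.4% ± 1.80 and 68.0% ± 2.80 after thinning. MT1X was detected in 66.7% ± 1.96 and 54.4% ± 1.33 of cells and after thinning in 30.9% ± 0.94 and 20.1% ± 0.09, without overlap between time points. MT1E was detected in 49.8% ± 3.49 and 29.0% ± 5.60 of cells, and in 25.3% ± 3.68 and 12.8% ± 0.64 after thinning. MT1G was found in 15.9% ± 3.73 and 4.76% ± 0.30 of cells. MTF1 was detected in 59.9% ± 2.83 and 45.1% ± 5.83 of cells and in 20.2% ± 1.91 and 16.3% ± 0.85 after thinning. All of these shares were lower in both 4 dpi libraries than in the 1 dpi libraries (exact permutation p = 0.1 for each, except p = 0.2 for MT2A before and MTF1 after thinning). SLC30A1 and SLC39A10 had a UMI in 53.8% ± 4.69 and 57.6% ± 0.45 of cells at 1 dpi and in 50.5% ± 4.65 and 51.5% ± 8.65 at 4 dpi, with overlapping libraries. No cell type that lacks these genes was in the sort. The 156 to 252 wells of a library that failed the filter held 102 to 216 UMIs of MT2A, among 122104 to 711081 UMIs in all. They may hold cells that failed the filter, so they give no background level of detection.

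The spread between cells was measured as overdispersion, the squared coefficient of variation left after Poisson counting error at each cell's depth, for genes with a mean of at least 0.5 UMIs per cell in every library (6660 genes). The median gene had an overdispersion of 0.30, 0.31 and 0.29 in the 1 dpi libraries 6, 7 and 8 and of 0.34 and 0.39 in libraries 10 and 11. MT1E had 10.7, 10.5 and 7.47 at 1 dpi and 34.6 and 40.8 at 4 dpi, which ranked it second in library 10 and the highest of the 6660 genes in library 11. MT1X had 3.41, 3.45 and 4.26 at 1 dpi and 32.9 and 10.4 at 4 dpi (ranks 3 and 13). Single cells weighed heavily in these values, since 1 cell held 214 of 351 MT1E UMIs in library 10 and 226 of 364 in library 11, and 1 cell 393 of 660 MT1X UMIs in library 10. MT2A had 3.11, 1.87 and 2.50 at 1 dpi and 13.0 and 14.0 at 4 dpi (ranks 13 and 8, against ranks 79, 151 and 108 at 1 dpi). In all 3 genes the values of 4 dpi lay above those of 1 dpi, also after thinning (exact permutation p = 0.1 for each). SLC30A1 was also uneven and overlapped between time points, with 2.75, 8.82 and 3.42 at 1 dpi and 2.00 and 16.4 at 4 dpi, and 1 cell of library 11 held 96 of its 241 UMIs. MTF1 (0.41 to 0.98) and SLC39A10 (0.63 to 1.01) lay closer to the median gene in all 5 libraries. MT1G and MT1F did not reach the minimum mean in every library.

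To see where the metallothionein RNA lay among like cells, the 826 cells were clustered with the settings of the study's code (2000 variable genes, 15 principal components, resolution 0.5), leaving the 8 genes and the other genes of their families out of the variable genes. This gave 6 clusters, numbered 0 to 5 by size, which are named here only by their leading genes and whose numbers are not those of the study's clusters: EMP1, AHNAK2 and L1CAM (cluster 0, 230 cells), HES1, HES5 and EGR2 (cluster 1, 159), TOP2A, MKI67 and CCNA2 (cluster 2, 141), PHGR1, PCDH19 and PRSS2 (cluster 3, 126), DHRS2, BHLHE41 and VGF (cluster 4, 111) and PLAUR and AKAP12 (cluster 5, 59). Levels per cluster are a description without a test, given as CPM over the cells of a cluster and library where there were at least 10 cells.

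Cluster 4 was the richest in metallothioneins in every library. MT2A stood at 1994, 1336 and 2447 CPM there in the 1 dpi libraries 6, 7 and 8 and at 4072 and 1942 CPM in the 4 dpi libraries 10 and 11. At 1 dpi it was lowest in cluster 5, with 192, 295 and 181 CPM, and at 4 dpi in cluster 2, with 253 and 202 CPM, followed by cluster 3, with 349 and 369 CPM. Cluster 4 held 17.2% to 25.5% of the metallothionein UMIs of the 1 dpi libraries and 76.8% and 60.4% of those of libraries 10 and 11, with 13 to 23 of its cells in a 1 dpi library and 25 and 33 in the 4 dpi libraries 10 and 11. The typical cell of cluster 4 did not follow its sum, since the median summed level per cell was 763, 1232 and 1039 CPM at 1 dpi and 688 and 638 CPM at 4 dpi. The highest cells of libraries 10 and 11 were both in this cluster.

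MTF1 had another pattern over the clusters. It was highest in the HES1 and HES5 cluster, with 107, 90.9 and 92.8 CPM in libraries 6, 7 and 8, where MT2A stood at 794, 636 and 888 CPM. Only 2 cells of that cluster came from 4 dpi. In cluster 4 MTF1 stood at 57.9 to 88.8 CPM, and in clusters 0, 2, 3 and 5 between 17.6 and 38.2 CPM in all libraries. SLC30A1 was likewise highest in clusters 1 (112 to 136 CPM) and 4 (63.1 to 178 CPM) and lowest in cluster 5, where MT2A was lowest too (3.55 to 9.46 CPM of SLC30A1).

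**Figure D3:**
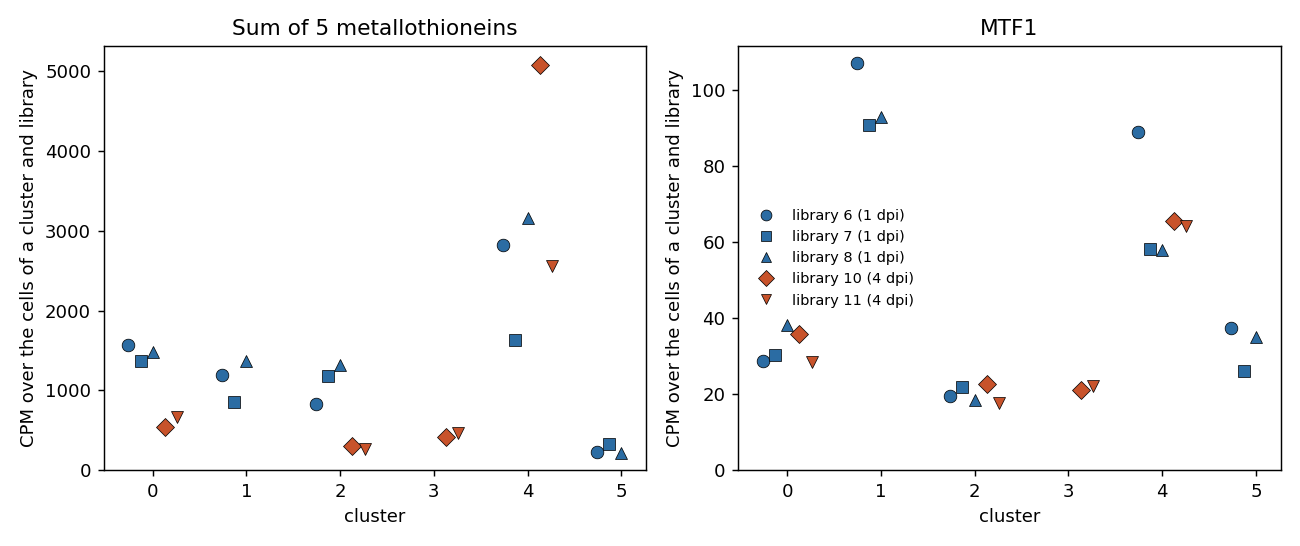
Summed level of the 5 metallothioneins (left) and level of MTF1 (right) in each cluster, in CPM over the cells of a cluster in a library, with 1 point per library and only where there were at least 10 cells. Metallothionein RNA peaks in cluster 4, with library 10 at 5075 CPM, and MTF1 in cluster 1, which has points of 1 dpi alone.

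Clusters 0, 2 and 4 had at least 10 cells in every library, so the time points were compared within each (edgeR, adjusted over all genes of the cluster). MT2A, MT1X and MT1E fell within clusters 0 and 2 and did not pass the test within cluster 4. In clusters 0 and 4, 1 cell held much of the metallothionein RNA in each 4 dpi library. In cluster 0, 4 of the 7 members tested were lower at 4 dpi and 0 higher, beside 2.42% of 9973 genes called lower. MT2A went from 1280, 920 and 1189 CPM to 459 and 622 CPM (log2 change -1.18, SE 0.16, adjusted p = 8.68e-05). MT1X went from 111, 128 and 139 CPM to 51.8 and 38.1 CPM (log2 change -1.60, SE 0.21, adjusted p = 7.76e-05). MT1E went from 154, 303 and 144 CPM to 33.2 and 9.53 CPM (log2 change -3.33, SE 0.38, adjusted p = 1.82e-05). In all 3 genes both 4 dpi libraries lay below those of 1 dpi. A single cell held 178 of the 410 metallothionein UMIs of this cluster in library 10 and 329 of 494 in library 11. MT1G had 43, 16 and 19 UMIs at 1 dpi and 0 and 2 at 4 dpi (adjusted p = 0.0081), and leaving out library 6 or library 10 ended this call (adjusted p = 0.053 and 0.075).

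In cluster 2, led by genes of dividing cells, 3 of the 6 members tested were lower and 0 higher, beside 3.56% of 9285 genes called lower. MT2A went from 682, 867 and 952 CPM to 253 and 202 CPM (log2 change -1.90, SE 0.17, adjusted p = 2.58e-08). MT1X went from 61.1, 133 and 143 CPM to 34.6 and 33.1 CPM (log2 change -1.70, SE 0.30, adjusted p = 3.94e-04). MT1E went from 74.6, 116 and 218 CPM to 12.7 and 24.8 CPM (log2 change -2.84, SE 0.37, adjusted p = 7.08e-06). Again the time points did not overlap in any of the 3. At resolution 0.8 this cluster split largely by time point, so the fall could not be compared within its parts. MT1G had 4, 68 and 3 UMIs at 1 dpi and 5 and 1 at 4 dpi and was too sparse to be tested, except with 1 library of 4 dpi left out, when adjusted p was 0.022 (without 10) and 0.21 (without 11).

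In cluster 4, 1 of the 7 members tested was lower and 0 higher, beside 6.13% of 9386 genes called lower. That member was MT1G, with 98, 2 and 30 UMIs at 1 dpi and 3 and 0 at 4 dpi (adjusted p = 0.0064), and it could not be tested without library 6 or library 8. MT2A (log2 change 0.58, SE 0.26, adjusted p = 0.15), MT1X (0.75, SE 0.32, adjusted p = 0.12) and MT1E (0.15, SE 0.29, adjusted p = 0.78) did not pass the test. Without library 11 the values were 1.03 in MT2A (adjusted p = 0.011) and 1.26 in MT1X (adjusted p = 0.015), and without library 10 they were -0.057 and -0.017 (adjusted p = 0.92 and 0.98). A single cell held 2026 of the 4175 metallothionein UMIs of this cluster in library 10 and 1254 of 2072 in library 11. With the cell richest in metallothionein UMIs left out of each cluster and library, a setting added after the data had been seen, MT1E fell in cluster 4 by a log2 change of -1.12 (SE 0.25, adjusted p = 0.0096), while MT2A had 0.13 (SE 0.35, adjusted p = 0.85) and MT1X -0.17 (SE 0.24, adjusted p = 0.70). In the same setting MT2A, MT1X and MT1E still passed the test as lower in clusters 0 and 2.

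The difference between clusters was tested in 1 fit with the library as a block, a test added after the data had been seen. The change of MT2A in cluster 4 exceeded that in cluster 0 by 1.72 on the log2 scale (SE 0.28, adjusted p = 6.59e-04) and that in cluster 2 by 2.47 (SE 0.29, adjusted p = 2.78e-06). For MT1X the differences were 2.31 (adjusted p = 9.12e-04) and 2.40 (adjusted p = 2.75e-04), and for MT1E 3.47 (adjusted p = 0.0012) and 2.93 (adjusted p = 0.0026). All 6 kept their direction and passed the test with any 1 library left out. Without the richest cell of each cluster and library, 5 of the 6 passed, with MT2A at 2.10 against cluster 0 (adjusted p = 1.67e-04) and 1.65 against cluster 2 (adjusted p = 8.57e-04), and the difference of MT1E against cluster 2 was 0.43 (adjusted p = 0.64). Of all 10350 genes, 3.10% differed between clusters 0 and 4, 8.50% between clusters 2 and 4 and 0.705% between clusters 0 and 2, where none of the 7 members tested was called (MT2A -0.76, SE 0.30, adjusted p = 0.32).

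MTF1, SLC30A1 and SLC39A10 passed the test in none of the 3 clusters. MTF1, which fell over all cells, had log2 changes of -0.12 (SE 0.27), -0.014 (SE 0.34) and -0.16 (SE 0.27) in clusters 0, 2 and 4, none of which passed the test (adjusted p = 0.85, 0.99 and 0.74). SLC30A1 had 0.10, 0.0056 and 0.76 (SE 0.28, 0.32 and 0.28, adjusted p = 0.89, 0.99 and 0.079), and in cluster 4 it passed the test without library 10 (1.17, adjusted p = 0.011) and had -0.20 without the richest cells (adjusted p = 0.66). SLC39A10 had 0.67 (SE 0.25, adjusted p = 0.13), 0.80 (SE 0.27, adjusted p = 0.066) and -0.48 (SE 0.29, adjusted p = 0.29). The change of SLC39A10 in cluster 4 was below that in cluster 2 by a log2 difference of -1.32 (SE 0.38, adjusted p = 0.028), a call kept without library 11 (adjusted p = 0.010) and lost without any 1 of the other libraries (adjusted p from 0.063 to 0.44) or without the richest cells (adjusted p = 0.051).

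**Figure D4:**
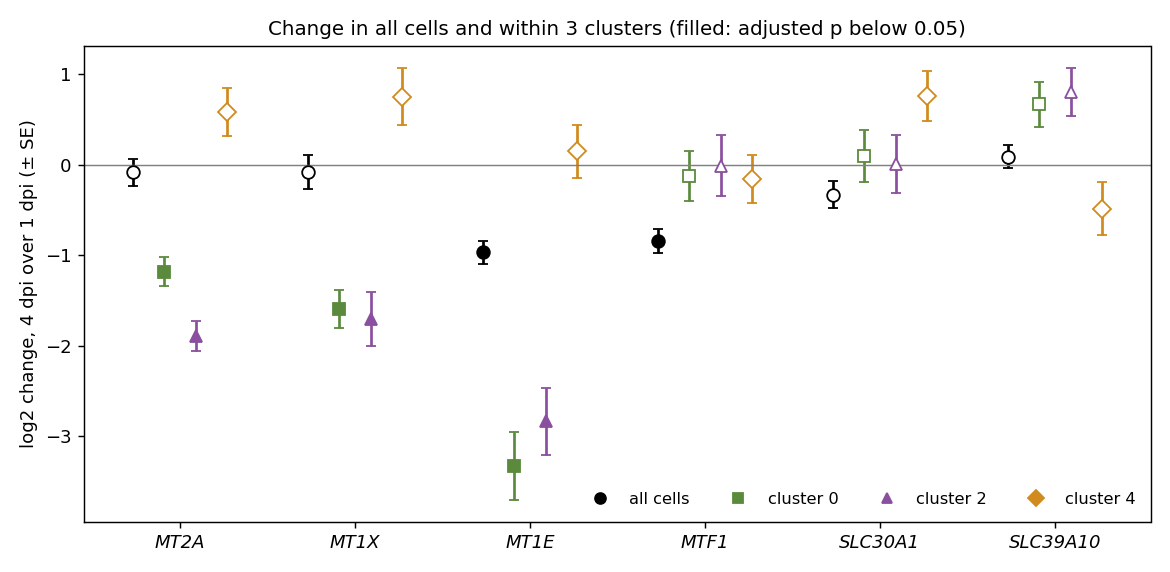
Log2 change from 1 to 4 dpi (± SE of the fitted model, n = 3 against 2 libraries) over all cells and within clusters 0, 2 and 4, for the 6 genes tested in all 4 fits (MT1G and MT1F are left out). In MT2A, MT1X and MT1E the filled symbols of clusters 0 and 2, which passed the test, lie between -1.18 and -3.33, and those of cluster 4 lie above 0 and are open (without the richest cells MT1E and MT1X in cluster 4 were below 0, at -1.12 and -0.17).

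Across the cells of a library the 3 most abundant metallothioneins varied together. Spearman's rho over cells, given as the median and range of the 5 libraries and without a test because cells share a library and its depth, was 0.54 (0.41 to 0.64) between MT1X and MT2A, 0.51 (0.40 to 0.62) between MT1E and MT2A and 0.41 (0.32 to 0.59) between MT1E and MT1X. The pairs with the sparse MT1F or MT1G had medians of 0.12 to 0.21. SLC30A1 followed at 0.24 (0.19 to 0.25) with MT2A and at 0.24 (0.15 to 0.31) with MT1X. MTF1 lay near 0 or low, with 0.0010 (-0.096 to 0.15) against MT2A and 0.15 (-0.14 to 0.36) against SLC30A1. SLC39A10 had -0.055 (-0.25 to 0.037) against MT2A. The summed metallothionein level had -0.082 (-0.20 to 0.038) against UMIs per cell and -0.057 (-0.25 to 0.13) against the mitochondrial share, whereas MTF1 had 0.29 (0.23 to 0.36) and -0.27 (-0.39 to -0.084). In sparse counts such values are lowered by counting error. Metallothioneins may also share reads because of their similar sequence, which could raise the values between them, and this was not tested.

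Of 8247 other genes with a UMI in at least 20% of the cells of every library, the 10 most like the summed metallothionein level were PTP4A1 (median rho 0.25 over 5 libraries), VGF (0.25), HMGN1 (0.23), ODC1 (0.22), DYNLL1 (0.22), HMGN2 (0.22), UBE2S (0.22), SNHG15 (0.21), XPO6 (0.20) and TMEM14B (0.20). The median gene had -0.0040. All 10 lay well under the values among the abundant metallothioneins, which may share reads. VGF, a leading gene of cluster 4, also rose from 1 to 4 dpi (log2 change 1.09, edgeR adjusted p = 8.02e-05).

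The other zinc transporters that passed the test moved in both directions. Of 7 other SLC30A exporters tested, 1 was higher and 1 lower, where 27.6% of all genes were called in either direction, with a median log2 change of 0.33 beside 0.0019 over all genes. SLC30A9 rose from 85.7, 88.4 and 88.2 CPM to 113 and 106 CPM (log2 change 0.33, SE 0.10, adjusted p = 0.026). SLC30A7, which loads zinc into the Golgi, fell from 109, 98.9 and 102 CPM to 66.0 and 70.1 CPM (log2 change -0.61, SE 0.11, adjusted p = 8.89e-04). SLC30A2, SLC30A3, SLC30A4, SLC30A5 and SLC30A6 did not pass the test. Of 11 other SLC39A importers tested, 4 were higher and 1 lower (median log2 change 0.11), beside 13.4% and 14.2% of all genes.

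Among the importers, SLC39A5 had the largest log2 change at 1.32 (SE 0.40, adjusted p = 0.022), from 2.54, 4.17 and 5.87 CPM to 5.52 and 14.8 CPM, with library 10 inside the range of 1 dpi. SLC39A3 (log2 change 0.93, adjusted p = 0.0030), SLC39A8 (0.65, adjusted p = 0.0043) and SLC39A1 (0.46, adjusted p = 0.0096) also rose. SLC39A9 fell from 101, 99.1 and 109 CPM to 79.3 and 71.4 CPM (log2 change -0.45, SE 0.11, adjusted p = 0.0069). SLC39A14, the most abundant importer at 126 ± 10.1 CPM at 1 dpi (SD, n = 3) and 115 ± 3.75 CPM at 4 dpi (n = 2), had a log2 change of -0.13 (adjusted p = 0.38), and SLC39A4, SLC39A6, SLC39A7, SLC39A11 and SLC39A13 did not pass the test either.

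Of 13 tested genes of copper handling, 3 were higher and 0 lower (median log2 change -0.043), beside 13.4% and 14.2% of all genes. CCS, the copper chaperone of superoxide dismutase, rose from 10.9, 10.2 and 8.59 CPM to 24.1 and 23.9 CPM (log2 change 1.26, SE 0.19, adjusted p = 2.27e-04). SOD1, which receives that copper, rose with a log2 change of 0.31 (adjusted p = 0.019) and COMMD1 with 0.58 (adjusted p = 0.011). The copper importer SLC31A1 (-0.10), the copper pump ATP7A (-0.38) and the chaperone ATOX1 (-0.084) did not pass the test (adjusted p = 0.68, 0.24 and 0.72).

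Of 10 genes that heavy metals and oxidants induce, 2 were higher and 3 lower (median log2 change -0.12), beside 13.4% and 14.2% of all genes. HSPA1A rose with a log2 change of 1.63 (SE 0.26, adjusted p = 3.39e-04) and HSPA1B with 0.82 (adjusted p = 0.0499), and these near-identical copies may share reads. DNAJB1, a co-chaperone, fell from 371, 441 and 432 CPM to 254 and 262 CPM (log2 change -0.68, SE 0.10, adjusted p = 1.50e-04), as did the oxidant-response genes SRXN1 (-0.49, adjusted p = 0.0056) and SLC7A11 (-0.43, adjusted p = 0.027). HMOX1, which cadmium and arsenite induce, was at 1.75 CPM at 1 dpi and 2.42 CPM at 4 dpi and did not pass the test (adjusted p = 0.49). Of 8 glucocorticoid-induced genes, 1 was higher and 1 lower (median log2 change -0.20), beside 13.4% and 14.2% of all genes. These were FKBP5 (0.46, SE 0.13, adjusted p = 0.014) and ERRFI1 (-0.72, SE 0.14, adjusted p = 0.0017). TSC22D3 (0.35, adjusted p = 0.087), PER1 (-0.065, adjusted p = 0.89) and DUSP1 (0.33, adjusted p = 0.19) did not pass the test.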

How the data were processed

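For each of 5 plates the authors deposited a table of raw UMI counts with 1 row per gene and 1 column per well, without normalization. Reads were mapped with BWA to the human reference (hg38 per the labels; its version and its handling of reads with several matches were not given in the sources used). Of 21199 genes listed in any library, 15266 were listed in all 5 and 15028 were seen in at least 10 wells. The cell filter counted the 57 ERCC spike-ins, as the study's code did, and ERCC rows were then left out of totals. Depth per library is given above, and more UMIs give a smaller counting error. The members and gene lists were chosen with earlier results of these data known.

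The UMIs of a library's passing cells were added up and tested with edgeR 4.0.16 (filterByExpr, TMM, quasi-likelihood) in R 4.3.3. Clusters were made with Seurat 5.3.0 and compared between time points where every library had at least 10 cells. Single values were compared by exact permutation of libraries in Python 3.11.15, and rank correlations used SciPy 1.17.1. The edgeR fit over all cells and the overdispersion estimate were checked on simulated data, and the other fits were not. Named genes were the 8 members, the called extremes and expressed genes of each list (non-called ones partly as counts), and the 10 genes most correlated with the metallothionein sum. Alternatives were DESeq2 1.42.0, other scalings and filters, the flow cell as a term, thinning to 5000 UMIs, equal weight per cell with limma 3.58.1, other cluster resolutions and leaving out each library.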

Additional observations from a re-analysis of the deposited data

Results flagged for a closer look

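The change from 1 to 4 dpi differed between clusters of cells in 3 metallothioneins and 1 transporter by the test of the difference itself. On the log2 scale the change in cluster 4 minus that in cluster 0 was 3.47 in MT1E, 2.31 in MT1X and 1.72 in MT2A, and the change in cluster 4 minus that in cluster 2 was 2.93 in MT1E, 2.40 in MT1X, 2.47 in MT2A and -1.32 in SLC39A10. Cluster 4 held 76.8% of the metallothionein UMIs of library 10 and 60.4% of those of library 11, and 1 cell of it held 37.3% and 36.6%. With the richest cell of each cluster and library left out, the differences between clusters 4 and 2 in MT1E (0.43) and SLC39A10 (-1.25) did not pass the test and the other 5 did.

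No main comparison used the wells that failed the cell filter, though some entered the alternatives with over 1000 genes or with no mitochondrial maximum. These failing wells also held metallothionein UMIs. Their summed level was 1548, 1663 and 1034 CPM in libraries 6, 7 and 8 (189, 289 and 140 UMIs) and 296.7 and 276.4 CPM in libraries 10 and 11 (211 and 191 UMIs). The level in passing cells was 1313, 1095 and 1468 CPM and 1373 and 905 CPM in the same libraries.

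Of 15 other metallothionein genes and pseudogenes, 6 had a UMI in any well, and 2 had more UMIs over all wells of the 5 libraries than the 3 that a count of 0 allows. MT3, best known from brain, had 20 UMIs in all and MT1B had 6.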

How the results depend on the processing

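Over all cells, MT1E and MT1G were lower at 4 dpi and passed the test in 17 of 18 alternatives each, and MTF1 in 16 of 18. The exceptions were scaling to the ERCC spike-ins, where 1 gene was higher, 1 lower and 0 of the members were called (the median log2 change of all genes moved to -0.20, and MT1E, MT1G and MTF1 had -1.14, -3.37 and -1.02 with SEs of 0.77, 0.86 and 0.75), and, for MTF1, thinning to 5000 UMIs. Thinning left 515 genes higher and 450 lower of 8871 tested. Of 13729 genes tested with equal weight per cell, 1372 were lower. With library 6, 7 or 8 left out, 1375 to 1500 of 12319 to 12382 tested genes were lower. Equal weight per cell called 6 members lower, and leaving out a library between 3 and 5. The upper count came from the fit without library 10. That fit has a single library at 4 dpi, so its calls are not set beside those of all genes. The log2 change of MT2A turned to 0.23 and that of MT1X to 0.21 with a mitochondrial maximum of 15%, and with a library left out they ranged from -0.45 to 0.20 and from -0.61 to 0.30. SLC39A10 turned to -0.098 with ERCC scaling. Within cluster 0, leaving out a library gave ranges of -0.30 to 0.017 (MTF1) and -0.080 to 0.34 (SLC30A1). In cluster 2 they were -0.22 to 0.15 (MTF1) and -0.11 to 0.12 (SLC30A1). In cluster 4 they were -0.20 to 0.51 (MT1E), -0.017 to 1.26 (MT1X), -0.057 to 1.03 (MT2A) and -0.30 to 0.11 (MTF1). Without library 6, 7 or 8, 0 to 1 members were called lower and 0 higher in cluster 4. Of 8785 to 9104 genes tested there, 417 to 443 were lower and 442 to 485 higher. SLC30A1 was at -0.10 in cluster 0 at resolution 0.8 and at -0.26 in cluster 2 with the members among the variable genes, and MTF1 at 0.015 in cluster 2 at resolution 0.3. With the richest metallothionein cell of each cluster and library left out, added after the data had been seen, 2 members were lower in cluster 4, with MT1E at -1.12, MT1X at -0.17 and SLC30A1 at -0.20 there, SLC30A1 at -0.17 and -0.035 in clusters 0 and 2 and MTF1 at 0.045 in cluster 2. With these richest cells left out, 449 of 9135 tested genes were lower in cluster 4. The rise in the share of metallothionein UMIs held by the top 10% of cells went from 15.7 to 7.77 percentage points with thinning. The cause of these shifts was not tested. MT1F was too sparse to be tested under thinning and without library 6 or 7. At resolution 0.8 cluster 2 split largely by time point. A part held 62 of its cells at 1 dpi and 6 at 4 dpi, and another 18 and 49. Neither had at least 10 cells in every library, so neither was compared. No cluster was matched to cluster 4 at 0.3. At 0.3 cluster 4 was joined with cluster 1, and cluster 2 with cluster 3. Flow cells held both time points, and with the flow cell as a term MT1E, MT1G and MTF1 were called lower. No paired analysis was possible because the libraries of the 2 time points share no number.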
